A study of Chlamydomonas reinhardtii with 28 samples.

Results

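CC-1009 is a laboratory wild type of the single-celled green alga *Chlamydomonas reinhardtii*, and its transcriptome was set against those of 6 other laboratory wild types. CC-1009 was taken by its strain label: 4 of the 28 libraries carry it, and the other 24 come from 6 strains with 4 libraries each. CC-1009 (mt-) was compared with 4 strains of the same mating type, CC-124, CC-1691, CC-4532 and CC-4533, and with 2 mt+ strains, CC-125 and CC-1690. This biflagellate alga grows by photosynthesis or on acetate, and its laboratory strains descend from a single isolate, so they share most of their genome and differ in blocks of it. No strain was treated. All cultures grew in acetate medium with trace nutrients, on a shaker under continuous light, and poly-adenylated RNA was taken in mid-log phase, so that strain was the one planned difference. Each strain stands for a single line, and its 4 libraries came from 4 flasks, so a strain difference holds everything particular to that line and to those flasks. Library set is also joined to strain, since CC-125 and CC-4533 form one set in the labels and CC-1009 and the other strains form another.

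Abundance is given as FPKM, fragments per kilobase of transcript scaled to the library's depth, and a difference as log2(FPKM + 0.1) in CC-1009 minus the mean of the 6 other strain means, with its standard error. The 14785 of 17611 genes whose mean passed 1 FPKM in any strain were tested with limma. A gene was called past 2-fold when limma's treat test, which asks whether a difference exceeds 2-fold, gave an adjusted p-value below 0.01. A second, wider call used limma's test against no change at the same limit. Past 2-fold, 372 genes (2.52% of those tested) were higher in CC-1009 and 138 (0.933%) were lower, 3.45% in all. Against no change, 2959 genes (20% of those tested) were higher and 2652 (17.9%) lower, and the median difference over all tested genes was -0.002. The summed FPKM was 583115 to 617733 in the CC-1009 libraries and 480355 to 1319895 in the others. Relative depth, read from the steps between low values, could be had in one library set and was 0.878 to 1.0 in CC-1009 and 0.705 to 1.31 in the other 16 libraries. Replicate 3 of CC-4533 stood apart from the other libraries of its strain in several gene groups, among them DNA replication, chlorophyll and heme synthesis (a centred mean level of -1.37, against -0.25 to -0.11 in the other 3 libraries), sterol synthesis (-1.14, against 0.17 to 0.20) and flagellar associated proteins (0.55, against -0.45 to -0.28). Without that replicate 441 genes were higher and 154 lower past 2-fold. The libraries of CC-124 also split, with a summed FPKM of 746195 and 687533 in replicates 1 and 4 and 480355 and 489219 in replicates 2 and 3. Their centred mean level of cytosolic ribosomal proteins was 0.23 and 0.02 in the first pair and -0.70 and -0.68 in the second. In CC-1690, replicate 2 had the highest sum, 1319895, against 794084 to 982262 in its other libraries. What lay behind these splits was not tested. The mating type labels were met by MID1, the minus-dominance gene of the mating type locus, which averaged 4.12 ± 0.514 FPKM in CC-1009 (SD, n = 4 for every strain mean given with an error), 3.42 to 7.51 in the other mt- strains, and 0.0125 and 0.02 in CC-125 and CC-1690.

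The distance of CC-1009 from each strain was unequal. Past 2-fold, CC-1009 differed from CC-1691 in the fewest genes, 169 higher (1.14%) and 109 lower (0.737%), and from CC-4532 in 270 higher (1.83%) and 267 lower (1.81%). It differed from CC-124 in 594 (4.02%) and 461 (3.12%), from CC-125 in 609 (4.12%) and 457 (3.09%), and from CC-1690 in 634 (4.29%) and 406 (2.75%). The most genes were higher against CC-4533, 938 (6.34%), with 463 (3.13%) lower. These 6 comparisons share the CC-1009 libraries. Because a strain can differ from a mean of 6 and still match one of them, 2 stricter readings were taken. All 4 CC-1009 libraries lay above the other 24 for 524 genes (3.54%) and below them for 149 (1.01%). CC-1009 differed past 2-fold from each of the 6 strains, in one direction, in 40 genes, of which 33 (0.223%) were higher and 7 (0.0473%) lower.

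Most of these 40 genes have no annotated product. A definition line was present for 8 of them, for 27.1% of all 510 genes past 2-fold and for 39.9% of the genes tested. The deepest decrease was that of Cre10.g433950, a gene of unknown function that was high in all other strains. It had 0.54, 0.75, 0.41 and 2.04 FPKM in the CC-1009 libraries, against a lowest value of 225, a median of 438 and a highest of 1086 FPKM in the other 24. Its neighbour Cre10.g433900, also without annotation, was lower as well, with 1.65, 1.82, 1.41 and 1.77 FPKM in CC-1009 and 3.48 to 9.98 (median 6.21) elsewhere (log2 difference -1.84 ± 0.08, limma adjusted p = 4.33e-09 past 2-fold). For neither gene did the groups overlap.

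Among the other 6 genes lower than in each strain, 3 have a known or predicted kind of product. RCE1 (Cre08.g370850) encodes the E2 enzyme that conjugates the ubiquitin-like protein NEDD8, a modifier of cullin ubiquitin ligases. It was at 11.3, 9.2, 8.27 and 9.13 FPKM in CC-1009, against a lowest value of 28, a median of 32.9 and a highest of 41.3 in the others, a difference of -1.83 ± 0.08 (limma adjusted p = 7.57e-09 past 2-fold). The 6 other strains were close to each other here, with means of 31.1 to 37.6 FPKM. Cre03.g198250, annotated as a paralog of the low-CO2-inducible gene LCI12, had 0.97, 1.22, 0.98 and 0.66 FPKM in CC-1009 and strain means of 5.04 to 89.1 FPKM elsewhere (-3.88 ± 0.12, adjusted p = 2.56e-16). Cre01.g013100, a predicted extracellular protein, had 1.04, 0.98, 0.97 and 0.87 FPKM, against 5.38 to 36.7 (median 12.8) in the other libraries (-3.62 ± 0.28, adjusted p = 4.3e-08). The remaining 3, Cre12.g485418, Cre12.g801338 and Cre12.g486450, have no annotation and averaged at most 5.39 FPKM in any strain. Cre12.g485418 was listed at 0 in all CC-1009 libraries and at 0.85 to 4.98 FPKM in the rest.

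Such near-absence was common among the decreases. Of the 138 genes lower past 2-fold, 104 averaged under 1 FPKM in CC-1009, and 14 were listed at 0 in its 4 libraries. Over all 14785 tested genes, 30 were listed at 0 in these libraries. A gene averaging under 1 FPKM in CC-1009 was tested only if another strain passed 1 FPKM, so low levels among the decreases follow in part from this filter. PIF1 (Cre12.g512100), a helicase related to yeast Pif1, was lower than in all other libraries, at 1.51, 1.67, 1.39 and 1.39 FPKM, against 2.16 to 20.2 (median 10.5, difference -2.55 ± 0.09, adjusted p = 2.1e-13). CC-1691 was nearest to it, at 2.32 ± 0.244 FPKM. The near-identical pair Cre16.g801943 and Cre30.g802194 was also below all other libraries, at 3.81 ± 0.358 and 2.21 ± 0.363 FPKM in CC-1009 and no less than 6.93 and 4.32 FPKM elsewhere. Reads could be split between these copies, so their single values are uncertain.

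Among the increases, levels in CC-1009 were spread widely. In CC-1009, 25 of the 372 higher genes averaged above 100 FPKM, while for 41 of the 372 every other strain averaged under 1 FPKM. Those 41 were tested only because CC-1009 itself passed 1 FPKM. The largest increase was that of Cre16.g682200, which has no annotation. Its 4 libraries had 17.3, 16.6, 15.7 and 15.3 FPKM, against at most 0.34 FPKM in the other 24 (6.63 ± 0.25, limma adjusted p = 8.21e-16 past 2-fold). The neighbours Cre12.g540850 and Cre12.g540800, also of unknown function, were near 0 in the other strains too. Cre12.g540850 had 12.8, 10.4, 12.5 and 11 FPKM in CC-1009, against no more than 0.2 elsewhere (6.29 ± 0.18, adjusted p = 1.91e-18). Cre12.g540800 had 4.69, 4.05, 4.39 and 4.87 FPKM, against no more than 0.16 (5.15 ± 0.20, adjusted p = 2.86e-15). Values this close to 0 have unknown precision, because no counts were used, and the size of these differences depends on the 0.1 that was added.

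Some genes set CC-1009 apart at levels well above that limit. Cre17.g723500 and Cre12.g492900, which have no annotation, averaged 51.3 ± 4.94 and 52.5 ± 2.74 FPKM in CC-1009, against 3 to 5.14 and 1.29 to 7.67 FPKM as strain means elsewhere. Cre06.g276200, also without annotation, had 139, 155, 145.4 and 150.4 FPKM in CC-1009, against 22.5 to 63.5 (median 51.7, difference 1.72 ± 0.07, adjusted p = 1.69e-09). Cre10.g801098, with no annotation, had 515, 584, 503 and 523 FPKM in CC-1009, against 133 ± 3.03 FPKM in CC-4532, the next highest strain, and under 1 FPKM on average in CC-1690 and CC-1691 (5.04 ± 0.19, adjusted p = 1.26e-15). Cre01.g038800 belongs to the major intrinsic proteins, the family of aquaporins and related channels. It had 37.0, 34.3, 39.9 and 36.0 FPKM, against 5.73 to 15 (median 8.59) in the other libraries (2.01 ± 0.07, adjusted p = 7e-12). CYP744A5P, named as a member of the cytochrome P450 family, had 22.3, 22.6, 28.4 and 29.8 FPKM, against 4.57 to 8.63 (median 6.29, difference 1.98 ± 0.11, adjusted p = 1.63e-07). Whether its transcript encodes a working enzyme was not tested. The 6 other strains again lay close together for CYP744A5P, at means of 5.46 to 8.04 FPKM. Further genes higher than in each strain were FAP386, a flagellar associated protein, at 11 ± 0.483 FPKM in CC-1009 and 0.295 to 2.6 FPKM as strain means elsewhere, and the serine/threonine kinase Cre12.g489850, at 3.71 ± 0.435 FPKM in CC-1009 and 0.0725 to 0.81 FPKM elsewhere. SELW2, which encodes a selenoprotein, and LIG4, the ligase that joins broken DNA ends, lay above all other libraries but not past 2-fold from each strain. SELW2 averaged 14.5 ± 1.72 FPKM in CC-1009 and 0.16 to 3.54 FPKM elsewhere (4.03 ± 0.52, adjusted p = 0.000107), and LIG4 5.16 ± 0.259 FPKM in CC-1009 and 1.11 to 1.98 FPKM elsewhere (1.60 ± 0.10, adjusted p = 4.4e-05). LIG4 was at 1.22 and no longer passed with 1 FPKM added in place of 0.1. Chlorophyllase I (Cre12.g484750), which removes the phytol tail of chlorophyll, averaged 12.3 ± 1.38 FPKM in CC-1009 and 2.77 to 5.17 FPKM elsewhere (1.57 ± 0.09, adjusted p = 1.68e-05).

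**Figure D1:**
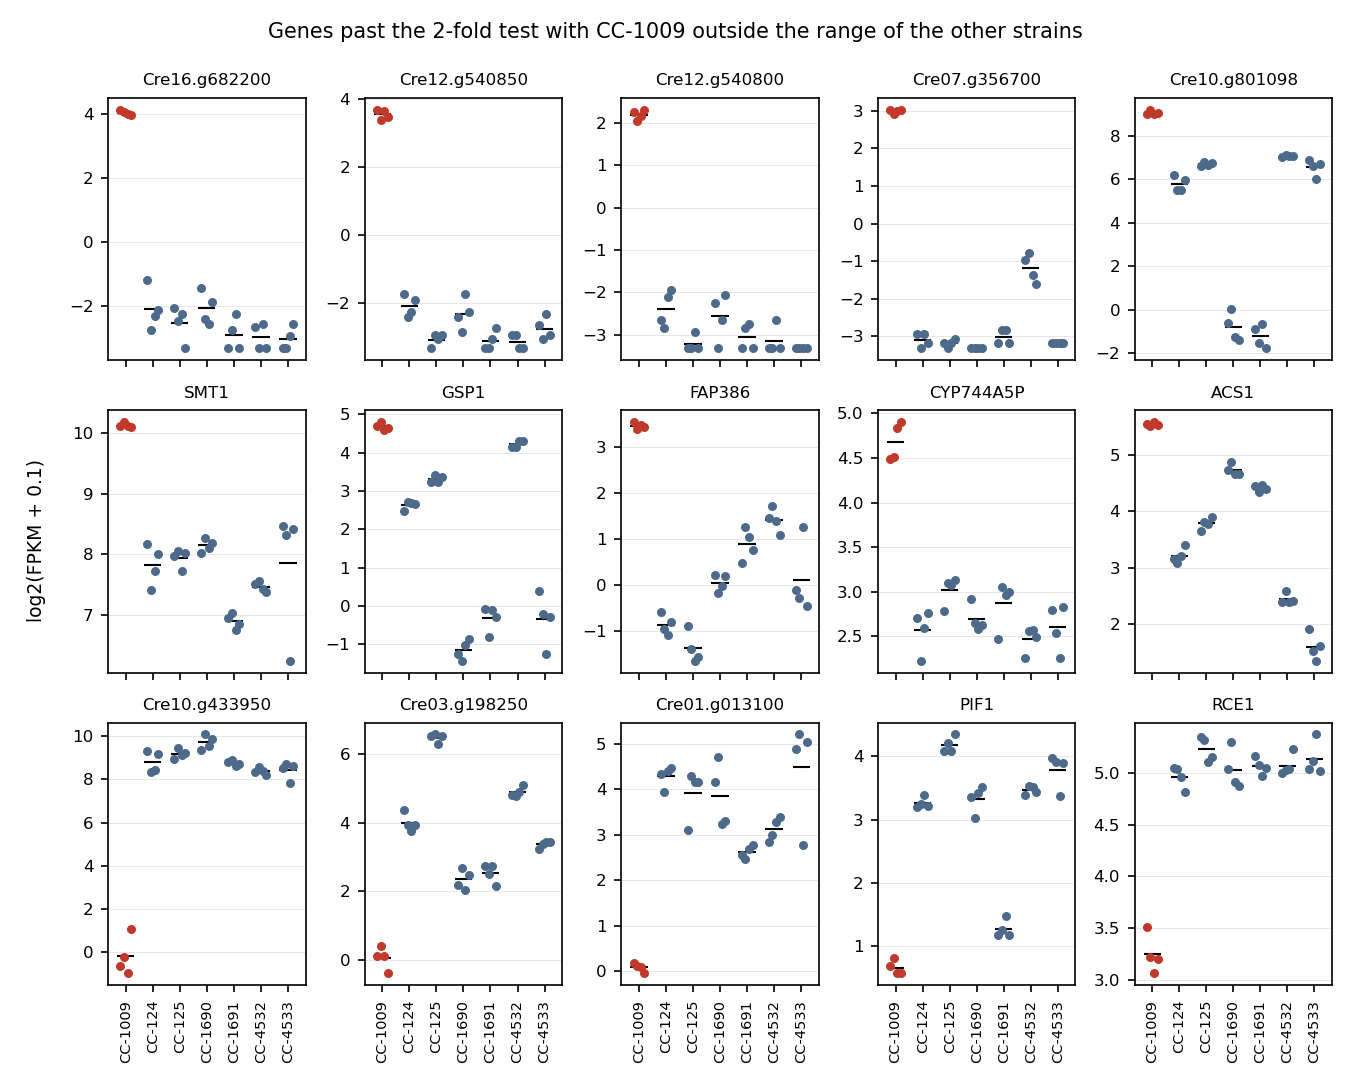
FPKM of 15 genes past 2-fold whose 4 CC-1009 libraries lie outside the range of the other 24, on the log2(FPKM + 0.1) scale, by strain. Each point is 1 library and each line a strain mean, with CC-1009 in red at the left. The top 2 rows are higher in CC-1009 and the bottom row is lower. For GSP1 the nearest strain is CC-4532 and for PIF1 it is CC-1691.

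A sterol methyltransferase, an acetyl-CoA synthetase and the alternative oxidase stood outside the range of the other strains without differing past 2-fold from each of them. SMT1 encodes sterol C24-methyltransferase, which adds the side-chain methyl group of ergosterol-type sterols. It was among the most abundant of the higher genes, with 1104, 1154, 1098 and 1085 FPKM in CC-1009, against 76.3 to 353 (median 232) FPKM in the other 24 libraries (2.42 ± 0.22, limma adjusted p = 1.72e-05 past 2-fold). The closest strain by its mean was CC-1690 with 284 ± 21.8 FPKM, a difference of 1.97 ± 0.28 (adjusted p = 0.0147 past 2-fold). Of the CC-4533 libraries, 3 were nearer still, with 353, 319 and 340.1 FPKM, and replicate 3 had 76.3 FPKM. SMT1 was the one gene past 2-fold among 8 tested genes of sterol synthesis, whose median difference was -0.33. ACS1, an acetyl-CoA synthetase, which activates acetate, had 46.4, 45.6, 47.6 and 46.0 FPKM, against 2.46 to 29.1 (median 11.5, difference 2.18 ± 0.07, adjusted p = 1.16e-12). It was the 1 gene past 2-fold of 24 genes of acetate use, the glyoxylate cycle and gluconeogenesis (4.17%, against 2.52% of all genes). Against no change, 6 of the 24 were higher and 6 lower (25% each, against 20% and 17.9% of all genes). AOX1, the alternative oxidase that passes electrons from ubiquinol to oxygen in mitochondria, averaged 42.2 ± 1.49 FPKM in CC-1009 and 10.4 to 34.3 FPKM in the other strains (1.33 ± 0.12, adjusted p = 4.19e-10 against no change).

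A broad difference concerned the carbon concentrating mechanism. In this alga, bicarbonate transporters and carbonic anhydrases raise the CO2 level around Rubisco in the pyrenoid when inorganic carbon is scarce, and the regulators CCM1 (also called CIA5) and LCR1 control many of these genes. Of 45 tested genes of the mechanism or named as low-CO2-inducible, 25 were higher in CC-1009 and 6 lower against no change, and 17, all higher, passed 2-fold (37.8% of the 45, against 2.52% of all genes). Their median difference was 0.80, against -0.002 over all genes tested. The difference from the mean hid a split between strains. Past 2-fold, 24 of the 45 were higher than in CC-124, 18 higher and 2 lower than in CC-125, and 23 higher than in CC-4533. In contrast, 1 was higher and 2 lower than in CC-1690, 2 were higher than in CC-1691, and 0 were called by limma in either direction against CC-4532, where 2 were lower and 0 higher at an unadjusted p below 0.05. The median of the 45 genes was 1.74 against CC-124, 0.88 against CC-125 and 1.64 against CC-4533, but -0.12 against CC-1690, 0.12 against CC-1691 and -0.08 against CC-4532. CC-1009 shared high levels with these 3 strains.

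Carbonic anhydrases gave the largest values. CAH1, the periplasmic enzyme, had 1925, 1828, 1625 and 1599 FPKM in CC-1009. It averaged 3854 ± 76.3 FPKM in CC-4532 and 3087 ± 277 FPKM in CC-1690, but 4.73 ± 0.666 FPKM in CC-1691 and 0.547 to 6.85 FPKM in CC-4533, CC-125 and CC-124. Against CC-1691 the difference was 8.50 ± 0.23 (limma adjusted p = 2.62e-19 past 2-fold), and CC-1009 was high with CC-4532 and CC-1690 for this gene. CAH2, the second periplasmic enzyme, was high in the same 3 strains, with 110.2 ± 9.33 FPKM in CC-1009, 183 FPKM in CC-1690 and 247 FPKM in CC-4532, against 2.06 FPKM in CC-1691. The mitochondrial pair CAH4 and CAH5 averaged 813 ± 79.0 and 741 ± 70.6 FPKM in CC-1009 and at most 17.7 and 13.8 FPKM in CC-124, CC-125 and CC-4533. These copies are nearly identical, so reads may be split between them.

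Inorganic carbon transporters and their partners showed the same split. NAR1B, also called LCIA, a bicarbonate channel of the chloroplast envelope, had 533, 556, 525 and 523 FPKM in CC-1009 and 409 to 699 FPKM in CC-1691, CC-4532 and CC-1690, against under 1 FPKM on average in CC-124, CC-125 and CC-4533 (5.11 ± 0.19, adjusted p = 9.38e-16 past 2-fold). HLA3, a bicarbonate transporter of the ABC family at the plasma membrane, was at 107 ± 6.84 FPKM in CC-1009, between 71.5 ± 3.72 FPKM in CC-1691 and 282 ± 81.1 FPKM in CC-1690. For LCI1, a plasma membrane protein of carbon uptake, CC-1009 was the lowest of the 4 strains with high levels, at 127 ± 37.9 FPKM. It was lower than in CC-1690 past 2-fold (-2.95 ± 0.21, adjusted p = 2.44e-08). The thylakoid channels BST1 and BST3 averaged 34.1 ± 2.14 and 74.2 ± 1.71 FPKM in CC-1009, and BST1 alone passed 2-fold (2.19 ± 0.16, adjusted p = 2.56e-06), which it did not without CC-124 (1.60).

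A few members of the list were highest in CC-1009 of all libraries. CCP2, a carrier protein, had 304, 313, 319 and 303 FPKM, against at most 289.9 FPKM in the others. LCID1, a homologue of the stromal protein LCIB, had 75.1, 78.2, 75.8 and 74.2 FPKM, against at most 69.5. CCP2 is nearly identical to CCP1, which did overlap (523 ± 20.6 FPKM in CC-1009 and 635 ± 98.4 FPKM in CC-1690). LCI8 and LCI19, named as low-CO2-inducible and annotated as an enzyme of arginine synthesis and a gamma hydroxybutyrate dehydrogenase, were also above all other libraries, at 25.1 ± 1.29 and 47.3 ± 3.56 FPKM. In contrast, LCIB1 and LCIC1, which form a complex near the pyrenoid, did not pass 2-fold (0.88 ± 0.21 and 1.22 ± 0.21). The Myb-type regulator LCR1 was at 57.7, 64.1, 54.9 and 53.2 FPKM in CC-1009, within the 37.5 to 73.8 FPKM of CC-1690, CC-4532 and CC-1691 and above the 0.015 to 0.355 FPKM of the rest. CCM1 differed little (0.34 ± 0.10, adjusted p = 0.00619 against no change), and that call was lost without CC-1690 (0.11) or without CC-124 (0.28), and on leaving out single CC-1009 libraries (0.29 to 0.36).

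Library set moved with this difference, since CC-125 and CC-4533 are the whole of the second set. Against the 4 other strains of its own set the median of the 45 genes was 0.56 in CC-1009, and the calls of HLA3, LCI1, LCIE1, CAH5, BST1, LCI15 and LCI31 past 2-fold were lost, with LCI1 at 0.18. CC-124, in the same set as CC-1009, had levels near those of CC-125 and CC-4533 in CAH1, NAR1B and LCR1. The part of library set in these differences was not tested.

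**Figure D2:**
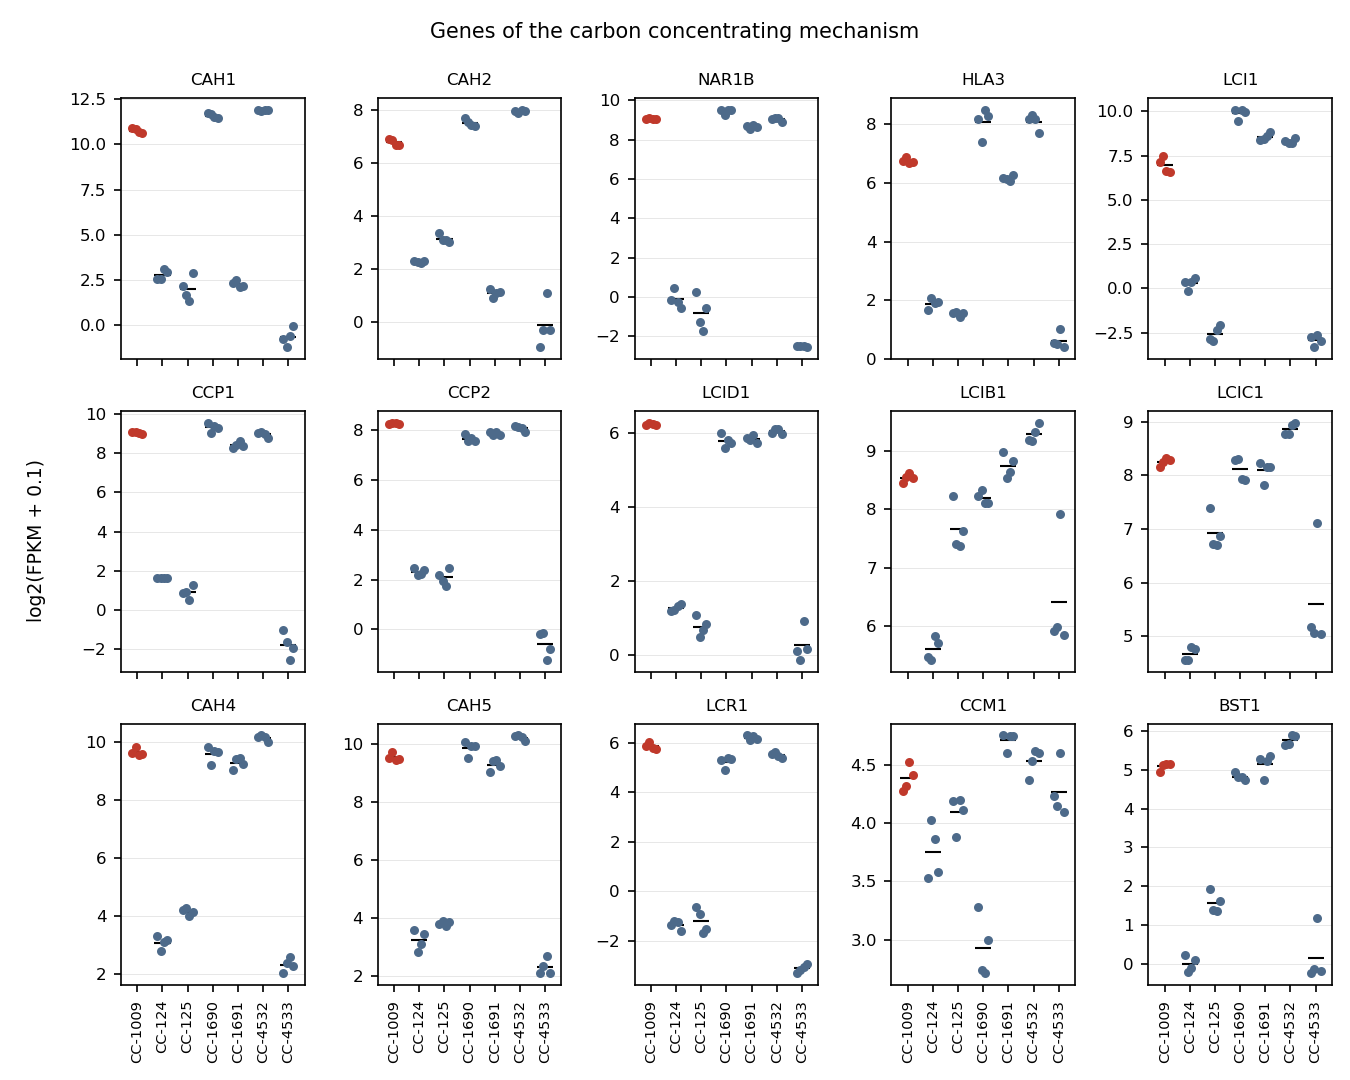
FPKM of 15 genes of the carbon concentrating mechanism on the log2(FPKM + 0.1) scale, by strain. Each point is 1 library and each line a strain mean, with CC-1009 in red at the left. CC-1009, CC-1690 and CC-4532 are high for CAH1 and CAH2, while CC-1691 is low for both and high for NAR1B, HLA3 and CCP1. CC-124, CC-125 and CC-4533 are low for all of these genes.

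Genes of photoprotection were high in the same 4 strains, in part. LHCSR3A and LHCSR3B encode the antenna protein of energy-dependent quenching and are nearly identical. LHCSR3A had 148, 153, 127 and 138 FPKM in CC-1009, 198 ± 57.3 FPKM in CC-1690, 57.7 ± 8.89 in CC-4532 and 50.4 ± 12.3 in CC-1691, against at most 1.16 FPKM on average in the other strains (4.37 ± 0.19, limma adjusted p = 9.34e-14 past 2-fold). LHCSR1 did not pass either test, at 14.5 ± 1.82 FPKM in CC-1009 and 0.64 to 49.9 FPKM as strain means elsewhere (0.42 ± 0.19). LHCSR1 did pass against no change without CC-125 (0.68), CC-1690 (0.63) or CC-4532 (0.86) and against the mt- strains alone (1.00). Of 11 tested genes for light stress, 5 (45.5%, against 20% of all genes) were higher and 0 lower by limma against no change (1 lower at an unadjusted p below 0.05). Their median of 0.53 rested on CC-4533, without which it was -0.004.

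By the mean level of its phosphate genes CC-1009 was above every other library. Algal cells take up phosphate through proton and sodium symporters of the PTA and PTB families, and the regulator PSR1 raises many of these genes when phosphate runs low. Of 31 tested genes of phosphate uptake and scavenging, 19 (61.3%) were higher and 2 (6.45%) lower in CC-1009 against no change (20% and 17.9% of all genes). Past 2-fold, 4 were called (12.9%, against 2.52% of all genes), all higher (PTB12, PTB9, PHT4C and PHT4F). The median of the 31 was 0.57. The mean level of the 31 genes, centred on the 7 strain means, was 0.56 to 0.58 in the CC-1009 libraries and no more than 0.23 in any other. Past 2-fold, 9 genes were higher than in CC-1690, 6 than in CC-125, 5 each than in CC-124, CC-1691 and CC-4533 and 3 than in CC-4532, and at most 1 was lower in any pair. The median was 0.72 against CC-4533, 0.65 against CC-1690, 0.36 against CC-124, 0.25 against CC-125, 0.24 against CC-1691 and 0.19 against CC-4532. Against no change, 24 of the 31 were higher and 4 lower than in CC-1690 (4430 and 4079 of all 14785 genes). Against CC-4532, the nearest strain, 6 were higher and 2 lower (1959 and 1510 of all genes).

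Sodium symporters led the list. PTB12 had 15.5, 16.1, 20.8 and 22.0 FPKM in CC-1009, against 0.09 to 14.3 (median 1.66) in the other libraries, of which CC-4532 was nearest at 11.1 ± 2.53 (3.39 ± 0.19, limma adjusted p = 1.38e-10 past 2-fold). PTB9, the next annotated symporter along the chromosome, had 4.16, 4.76, 5.7 and 6.38 FPKM in CC-1009, but CC-125 reached 5.4 ± 0.24 FPKM (2.33 ± 0.19, adjusted p = 5.34e-06). PTB2, the most abundant PTB transcript named here, had 151, 148, 146 and 146 FPKM, against 22.0 to 136 (median 64.2) elsewhere (1.29 ± 0.11, adjusted p = 1.23e-10 against no change). PHT4C, a phosphate cotransporter of the PHT4 family, had 11.7, 9.69, 11.9 and 10.6 FPKM, against 2.25 to 5.14 (median 3.75, difference 1.54 ± 0.11, adjusted p = 0.000742 past 2-fold). With 1 FPKM added in place of 0.1, PHT4C was at 1.34 and PHT4F at 1.04, and neither passed 2-fold. Against the strains of the same library set PHT4F was at 0.71 and not past 2-fold, and its call was also lost without CC-125 (1.34) or CC-4533 (1.37). PTB1 went the other way, at 2.19, 2.07, 1.81 and 2.21 FPKM in CC-1009, against 2.83 to 6.95 (median 5.1), below every other library (-1.20 ± 0.08, adjusted p = 6.13e-12 against no change). The regulator PSR1 was at 7.93 ± 0.163 FPKM in CC-1009, second to CC-4532 at 9.81 ± 0.564 (0.84 ± 0.10, adjusted p = 2.33e-07 against no change). VTC4, which makes polyphosphate, averaged 32.8 ± 1.42 FPKM in CC-1009 and 22.1 to 29.9 in the other strains (0.40 ± 0.10, adjusted p = 0.00166 against no change).

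Sulfate genes were higher in part. Of 56 tested genes, 24 (42.9%) were higher and 5 (8.93%) lower against no change (20% and 17.9% of all genes), with a median of 0.21. Past 2-fold, 4 were called (7.14%, against 2.52% of all genes), all higher. The 4 were SLT1 and SULTR2, sulfate transporters of the plasma membrane, ECP76, an extracellular protein of sulfur-starved cells, and the kinase SNRK2C. The centred mean level of the 56 genes was 0.31 to 0.38 in CC-1009 and overlapped with CC-1691 (0.08 to 0.39) and CC-1690 (0.09 to 0.33). Against no change, 30 were higher and 4 lower than in CC-4533, 23 and 8 than in CC-124, and 21 and 4 than in CC-4532. Fewer were higher than in CC-1690 (18, with 11 lower), CC-125 (16, with 9 lower) and CC-1691 (6, with 5 lower). Over all 14785 genes, 3719 were higher and 3430 lower than in CC-4533, 3617 and 3203 than in CC-124, and 1959 and 1510 than in CC-4532. Against CC-1690, CC-125 and CC-1691 they were 4430 and 4079, 3008 and 3293, and 1047 and 892. The number of genes called thus differed by pair, and the sulfate counts alone do not rank the strains. SLT1 had 49.3, 37.9, 54.6 and 47.4 FPKM in CC-1009, against 0.46 to 57.7 (median 18.5), and single libraries of CC-1690 and CC-1691 reached the same level (2.40 ± 0.22, limma adjusted p = 2.39e-05 past 2-fold). SULTR2 averaged 40.5 ± 3.87 FPKM in CC-1009, 84.4 ± 17.8 in CC-125, 44.2 ± 10.6 in CC-4532 and 39.8 ± 18.5 in CC-1690, against 3.64 ± 1.48 in CC-1691, 0.55 ± 0.0876 in CC-124 and 1.05 ± 0.404 in CC-4533. The call of SLT1 was lost without CC-4533 (1.72) and that of SULTR2 without CC-124 (1.54) or without CC-4533 (1.70), and SNRK2C was at 0.73 without CC-4533 and lost its call without any 1 of the CC-1009 libraries (1.68 to 1.72). ECP76 lost it without CC-1009 replicate 1 (2.20). SAC1, a membrane protein needed for the response to sulfur starvation, was above all other libraries, with 15.9, 16.9, 15.2 and 15.9 FPKM, against 3.21 to 14.7 (median 8.09, difference 1.07 ± 0.15, adjusted p = 1.79e-06 against no change).

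Of 29 tested genes for nitrate, nitrite and ammonium assimilation, 13 (44.8%, against 20% of all genes) were higher against no change. By limma 0 were lower (1 lower at an unadjusted p below 0.05). Past 2-fold, 6 were called (20.7%, against 2.52% of all genes), all higher, and the median of the 29 was 0.31. CC-1009 shared its level with CC-1690, as the centred mean level of the 29 genes was 0.58 to 0.63 in CC-1009, 0.52 to 0.69 in CC-1690 and at most 0.24 in any other library. Against CC-1690, 0 genes passed 2-fold (2 higher and 1 lower at an unadjusted p below 0.05 by limma) and the median was -0.14, while 10 genes each were higher past 2-fold than in CC-125 and CC-4533, 4 than in CC-4532 and 2 each than in CC-124 and CC-1691. One of the 6 was NAR1B, counted above with carbon uptake. NII1, nitrite reductase, had 3.05, 3.12, 2.74 and 2.47 FPKM in CC-1009, against 0 to 1.77 (median 0.855, difference 2.03 ± 0.17, limma adjusted p = 5.36e-05 past 2-fold). Its call, and those of NIT3, NRT2D, NRT2E and CNX6, were lost with 1 FPKM added. These 5 genes averaged 0.863 to 4.42 FPKM in CC-1009, and the calls of NIT3, NRT2D, NRT2E and CNX6 were also lost without single CC-1009 libraries (1.49 to 1.91). The ammonium transporter AMT1G was above all other libraries at a higher level, with 40.9, 41.2, 42.1 and 42.5 FPKM, against 16.9 to 29.5 (median 21.4, difference 0.91 ± 0.07, adjusted p = 1.01e-10 against no change).

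Metal nutrition gave single genes rather than a list. Of 45 tested genes, 15 (33.3%) were higher and 4 (8.89%) lower against no change (20% and 17.9% of all genes), with a median of 0.18. Past 2-fold 1 was higher and 1 lower (2.22% each, against 2.52% and 0.933% of all genes). The higher one was the ferritin FER2, an iron store, at 1.12, 1.31, 1.14 and 1.18 FPKM in CC-1009, against 0 to 0.38 (median 0.17, difference 2.35 ± 0.27, limma adjusted p = 0.00079 past 2-fold), and not past 2-fold with 1 FPKM added (0.90). The lower one was FEA1, an iron-assimilating protein of the periplasm. It had 3.37, 2.78, 6.95 and 5.66 FPKM in CC-1009, against 839 ± 221 in CC-124, 2.96 ± 1.16 in CC-1691 and 24.5 to 48.1 in the other 4 strains (-2.87 ± 0.44, adjusted p = 0.0035), and without CC-124 the difference was -1.94 and no longer past 2-fold. The call was also lost without CC-1009 replicate 1 (-2.75) or 2 (-2.66). Its homologue FEA2 varied within CC-1009, at 9.84, 11.7, 32.6 and 21.3 FPKM, and passed only against no change (-1.35 ± 0.39, adjusted p = 0.00517). CYC6, which was not counted in this list, is the cytochrome that replaces plastocyanin when copper is short, and averaged 6.51 ± 1.65 FPKM in CC-1009, 8.51 ± 2.19 in CC-1690 and at most 2.06 in the others (3.08 ± 0.26, adjusted p = 5.57e-07). CPX1, which shares its copper-responsive control, averaged 121 ± 5.86 FPKM in CC-1009 and 81.7 to 175 in the other strains and did not pass either test.

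**Figure D3:**
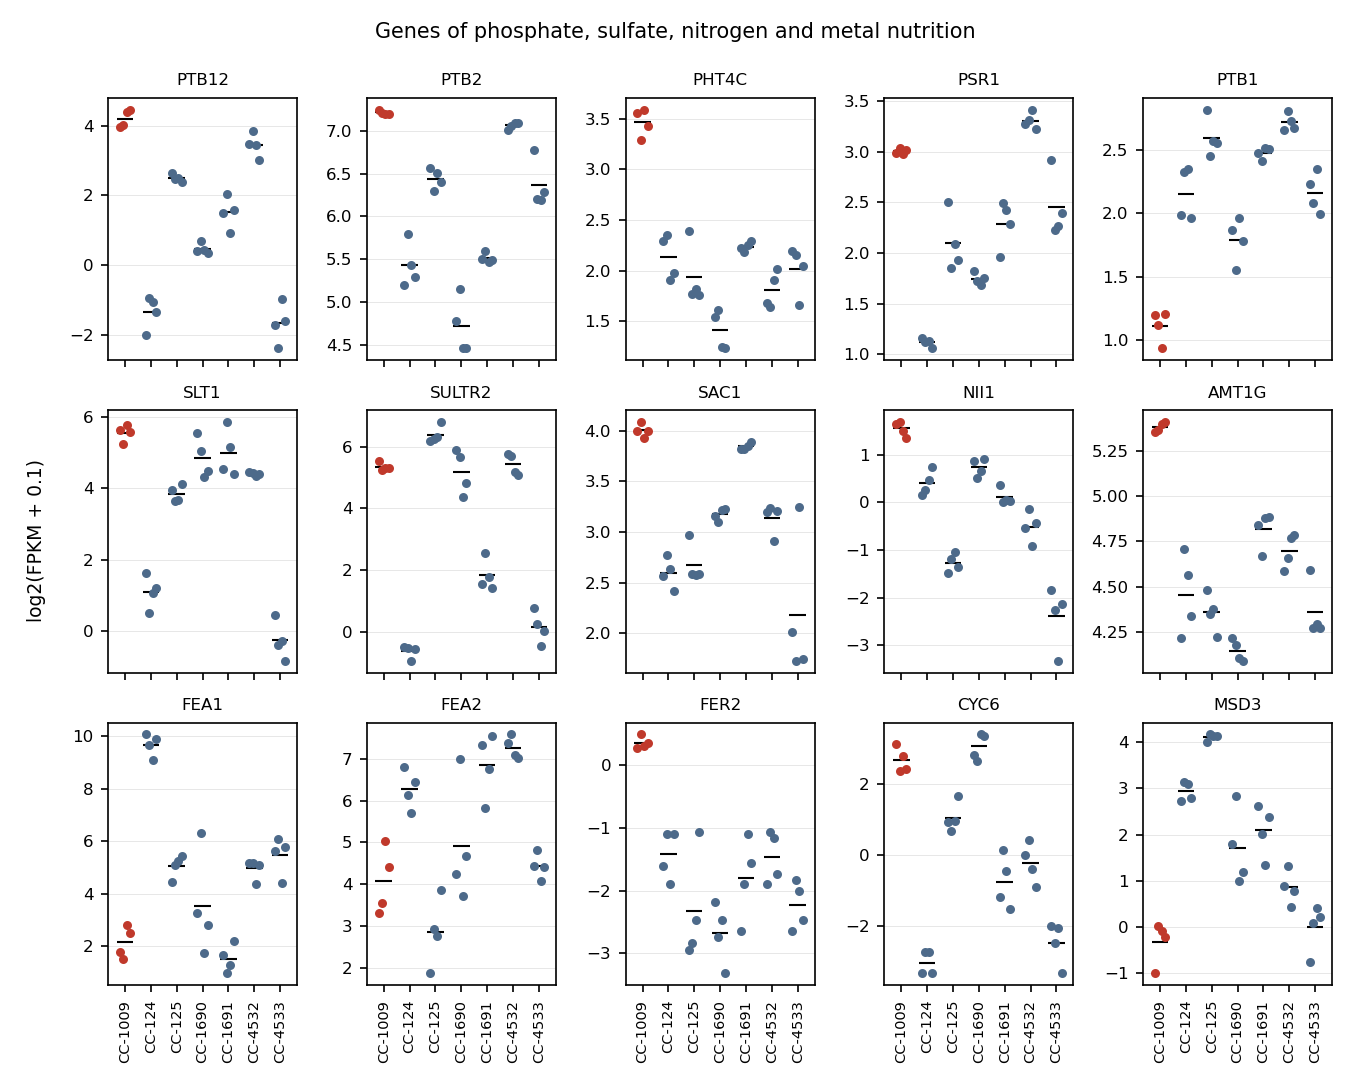
FPKM of 15 genes of phosphate, sulfate, nitrogen and metal nutrition on the log2(FPKM + 0.1) scale, by strain. Each point is 1 library and each line a strain mean, with CC-1009 in red at the left. PTB12, PTB2, PHT4C, SAC1, NII1, AMT1G and FER2 are above all other libraries in CC-1009 and PTB1 is below them, while SULTR2, CYC6 and FEA1 overlap with other strains.

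More signalling genes were higher than lower in CC-1009. The adenylate and guanylate cyclases, which make cyclic nucleotides as second messengers, are a large family in this alga. Of 72 tested, 43 (59.7%) were higher and 4 (5.56%) lower against no change (20% and 17.9% of all genes), with a median of 0.43. Past 2-fold, 6 were called (8.33%, against 2.52% of all genes), all higher. The centred mean level of the 72 was 0.41 to 0.49 in the CC-1009 libraries and at most 0.38 in any other, the nearest being CC-4532. Against CC-1691 their median was 0.06, with 13 higher and 3 lower against no change, and against CC-4532 it was 0.17, with 19 higher and 6 lower. Cre05.g236650 had 8.94, 9.73, 10.1 and 9.89 FPKM in CC-1009, against 0.02 to 8.43 (median 2.01, difference 3.02 ± 0.26, limma adjusted p = 8.92e-07 past 2-fold), and Cre05.g237800 averaged 10.9 ± 1 FPKM in CC-1009 and 0.228 to 9.96 in the other strains. Of 123 protein kinases, 48 (39%) were higher and 10 (8.13%) lower against no change (median 0.16). Of 56 transcription factors, 29 (51.8%) were higher and 3 (5.36%) lower (median 0.30). For both lists the 4 CC-1009 libraries had the highest centred mean levels, but CC-1691 differed little. Against CC-1691, 13 kinases were higher and 3 lower (median 0.04) and 4 transcription factors were higher and 2 lower (median 0.03). Over all 14785 genes, 1047 were higher and 892 lower than in CC-1691 against no change, and 1959 and 1510 than in CC-4532. RWP5, a transcription factor of the RWP-RK family, had 3.43, 4.72, 3.26 and 3.59 FPKM, against 0.08 to 2 (median 0.715, difference 2.36 ± 0.26, adjusted p = 0.000409 past 2-fold), and was at 1.46 and not past it with 1 FPKM added. CHR2, a channelrhodopsin of the eyespot, was above all other libraries at 17.7, 22.8, 19.0 and 19.3 FPKM, against 3.06 to 16 (median 11.6, difference 1.20 ± 0.23, adjusted p = 0.000126 against no change), and 7 of 14 photoreceptor genes were higher against no change with 0 lower (0 also at an unadjusted p below 0.05). The photoreceptor level was shared with CC-1691 and CC-4532, at a centred mean of 0.30 in CC-1009, 0.34 in CC-1691 and 0.32 in CC-4532. Against no change, 0 photoreceptor genes were higher than in either strain by limma (0 also past 2-fold at an unadjusted p below 0.05), with 1 lower than in CC-1691 and 2 lower than in CC-4532.

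DNA replication and cell cycle genes are transcribed as cells commit to division. Of 53 tested, 38 were lower and 0 higher in CC-1009 by limma against no change (1 higher at an unadjusted p below 0.05), which is 71.7% of the list, against 17.9% of all genes. Their median of -0.88 was the lowest of the 44 lists, and 0 were called past 2-fold (1 at an unadjusted p below 0.05). MCM7, a subunit of the replicative helicase, had 5.25, 4.51, 5.54 and 4.32 FPKM in CC-1009, against 5.74 to 28.2 (median 10.4, difference -1.32 ± 0.21, limma adjusted p = 1.29e-05 against no change), and was below every other library. MCM4, of the same helicase, averaged 4.3 ± 0.635 FPKM in CC-1009 and 5.48 to 19.9 in the other strains (-1.28 ± 0.27, adjusted p = 0.000267). POLE1, the catalytic subunit of DNA polymerase epsilon, averaged 0.99 ± 0.112 FPKM in CC-1009 and 1.22 to 6.13 FPKM in the other strains (-1.39 ± 0.16, adjusted p = 4.26e-08). The centred mean level of the 53 genes was -0.75 to -0.51 in CC-1009 and overlapped with that of CC-4532, at -0.62 to -0.25. The median of the list was -0.19 against CC-4532, -0.36 against CC-125 and -0.56 against CC-1691, but -1.19 against CC-1690, -1.37 against CC-124 and -1.50 against CC-4533. Past 2-fold, 11 genes were lower than in CC-4533 and 3 each lower than in CC-124 and CC-1690. The level also varied between libraries of one strain, between -0.19 and 0.65 in CC-1690, and in CC-4533 it was -0.30 in replicate 3 and 0.93 to 0.99 in the other 3 libraries. What part such spread between flasks had in the strain difference was not tested.

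Among ribosomal proteins and photosystem genes, 12% or less of each list was lower against no change, against 17.9% of all genes. Of 75 cytosolic ribosomal proteins, 9 were lower and 0 higher by limma against no change, and 74 had a negative difference. At an unadjusted p below 0.05, 41 of the 75 were lower and 0 higher, and 4082 of all 14785 genes were lower. The strains were split, as 74 were lower than in CC-4533, 73 than in CC-1690 and 25 than in CC-125 against no change. By limma 1 was lower than in CC-124 and 0 than in CC-1691 or CC-4532, and at most 1 was higher in any pair. Over all 14785 genes, 3430 were lower than in CC-4533, 4079 than in CC-1690 and 3293 than in CC-125. The median of the 75 genes, -0.30, was -0.09 against the strains of the same library set and -0.006 after quantile normalization. Of 19 genes of photosystem I and 20 of photosystem II with their antennae, 1 each was lower and 0 higher. At an unadjusted p below 0.05, 3 and 11 were lower and 0 higher. Against no change, 17 and 18 were lower than in CC-1690, 2 and 10 than in CC-125, and 0 than in CC-1691 or CC-4532. The medians of the 2 lists, -0.15 and -0.32, turned sign after quantile normalization (0.08 and 0.03). Chlorophyll and heme synthesis had 4 of 26 genes higher (15.4%, against 20% of all genes) and 0 lower against no change (3 lower at an unadjusted p below 0.05). CAO1, chlorophyllide a oxygenase, which makes chlorophyll b, had 90.7, 95.7, 88.4 and 92.0 FPKM in CC-1009, against 40.7 to 85.0 (median 65.2) in the other libraries (0.51 ± 0.08, limma adjusted p = 6.09e-06 against no change). POR1, the light-dependent protochlorophyllide reductase, averaged 227 ± 14.4 FPKM in CC-1009 and 140.5 to 357 FPKM in the other strains, a difference of 0.05 ± 0.17 that did not pass (adjusted p = 0.836).

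**Figure D4:**
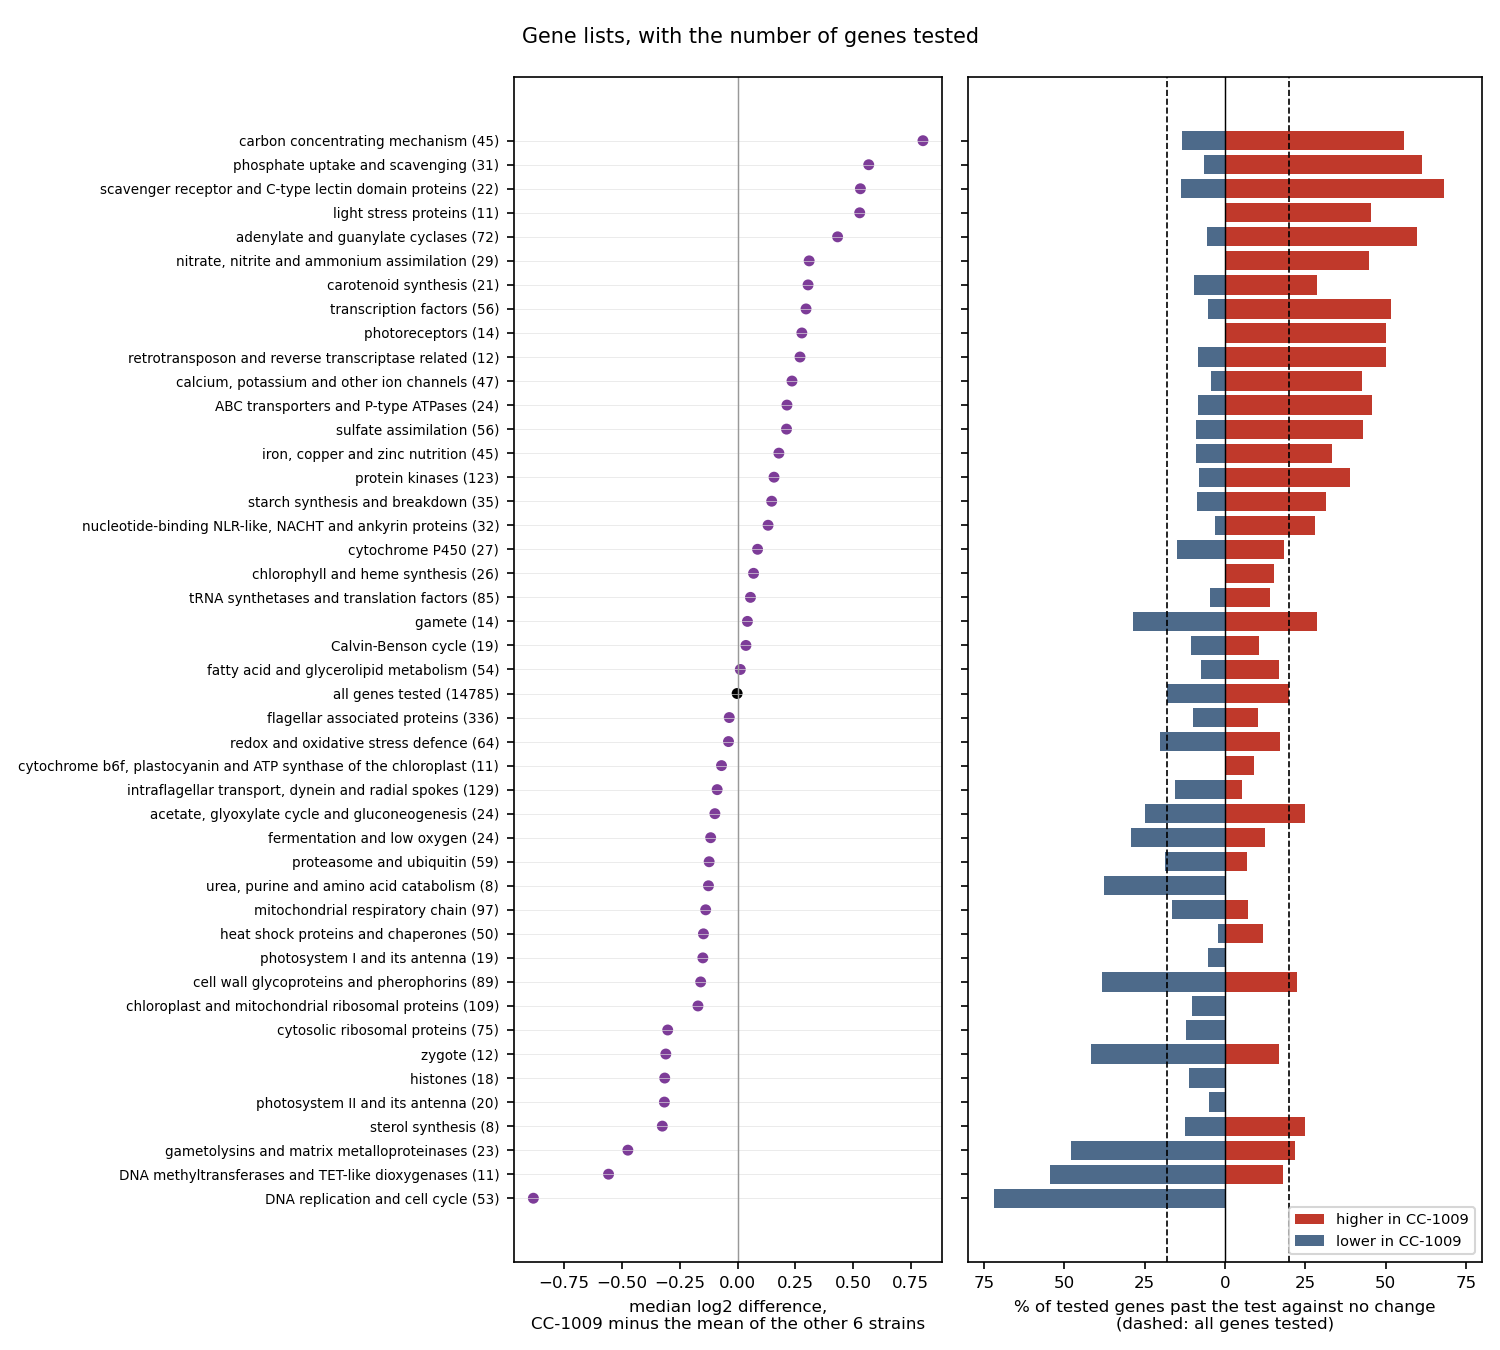
Median log2 difference (left) and percentage of genes past limma's test against no change (right) for 44 gene lists and all 14785 genes tested, in the order of the median. Red bars give genes higher and blue bars genes lower in CC-1009, and dashed lines mark 20% and 17.9%, the percentages over all genes tested. The carbon concentrating mechanism is at the top with a median of 0.80 and DNA replication and cell cycle at the bottom with -0.88.

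**Figure D5:**
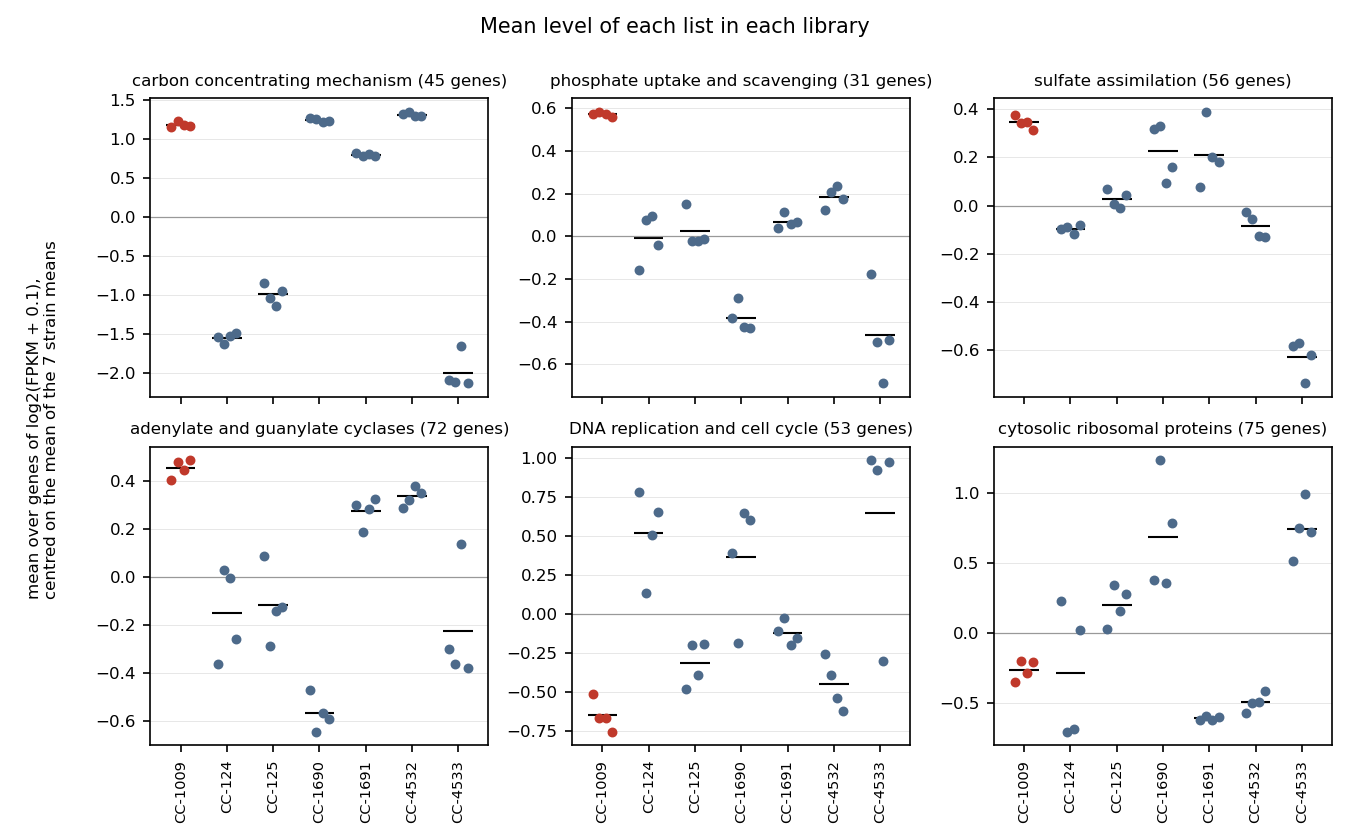
Mean centred level of 6 gene lists in each library, on the log2 scale, by strain, with CC-1009 in red at the left and a line at each strain mean. The 4 CC-1009 libraries lie above all others for phosphate genes and cyclases, with CC-1690 and CC-4532 for carbon genes, and lowest, overlapping with CC-4532, for DNA replication genes.

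Cell wall glycoproteins and pherophorins build the wall and the extracellular matrix of this alga and its relatives. Of 89 tested, 20 were higher (22.5%) and 34 lower (38.2%) against no change, and past 2-fold 1 was higher and 3 lower (3.37%, against 0.933% of all genes). The higher one was Cre09.g389050, a membrane hydroxyproline-rich glycoprotein that was also higher than in each of the 6 strains, at 9.53, 12.7, 11.6 and 12.9 FPKM in CC-1009, against 0.16 to 4.07 (median 0.795, difference 3.68 ± 0.18, limma adjusted p = 5.07e-12 past 2-fold). For the list of 89 the direction depended on the strain. The median was 0.60 against CC-1690 and 0.20 against CC-4533. It was -0.42 against CC-124, -0.45 against CC-125, -0.56 against CC-1691 and -0.46 against CC-4532. Past 2-fold, 20 genes were higher and 6 lower than in CC-1690, while 7 were higher and 15 lower than in CC-124. Flagellar associated proteins had 35 higher and 33 lower of 336, or 10.4% and 9.82%, against 20% and 17.9% of all genes. Single genes among them differed by far, such as FAP294, at 0.07, 0, 0 and 0.41 FPKM in CC-1009, 0.24 ± 0.0876 FPKM in CC-1691 and 25.6 to 49.4 FPKM in the other strains. In CC-1009 and CC-1691 all 8 libraries were under 1 FPKM for FAP294. FAP41 was high in the same pair, at 200.3 ± 15.5 FPKM in CC-1009 and 334 ± 42.1 FPKM in CC-1691, but also at 117 ± 52.0 FPKM in CC-124 and 112 ± 11.6 FPKM in CC-4532.

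Gametes and zygotes are the other cell states that a culture could hold. Of 14 gamete genes tested, 4 were higher and 4 lower against no change (28.6% each). Of 12 zygote genes, 2 were higher and 5 lower (16.7% and 41.7%). The shares over all genes were 20% and 17.9%. GSP1, the homeodomain protein of plus gametes that pairs with its minus partner in the zygote, was the 1 gene past 2-fold in either list. It had 26.0, 27.8, 24.2 and 25.1 FPKM in CC-1009, an mt- strain, against 0.27 to 19.7 (median 3.36, difference 3.30 ± 0.16, limma adjusted p = 8.44e-12 past 2-fold). CC-4532, also mt-, came nearest at 18.6 ± 1.19 FPKM, while the mt+ strains CC-125 and CC-1690 had 9.85 ± 0.644 and 0.357 ± 0.0789 FPKM. GAS28, a hydroxyproline-rich glycoprotein gene of gametes, was lower at 7.51 ± 0.995 FPKM, against 3.83 to 53.5 FPKM as strain means elsewhere (-1.45 ± 0.25, adjusted p = 3.35e-05 against no change).

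Genes related to DNA methylation gave opposite calls. Of 11 tested DNA methyltransferases and TET-like dioxygenases, 2 were higher and 3 lower past 2-fold (18.2% and 27.3%, against 2.52% and 0.933% of all genes). This list was chosen after its values were seen, so these shares do not measure an excess over all genes. The methyltransferase DMC3 had 8.1, 9.33, 8.48 and 7.91 FPKM in CC-1009, against 1.1 to 5.64 (median 2.11, difference 1.84 ± 0.09, limma adjusted p = 1.5e-08 past 2-fold), and DMC7 had 2.33, 2.16, 1.84 and 2.12 FPKM, against 0.17 to 1.15 (median 0.34, difference 2.18 ± 0.13, adjusted p = 4.55e-08). Both were above all other libraries, with CC-124 nearest. DMC7 was at 1.14 and no longer past 2-fold with 1 FPKM added. The 3 lower genes encode TET-like dioxygenases, a family that oxidises methylated cytosine. Cre17.g734757 had 0.03, 0.09, 0.03 and 0.18 FPKM in CC-1009, and CC-1690 and CC-4533 were as low, at 0.133 and 0.1 FPKM, against 13.9 to 43.9 FPKM in the other 4 strains. Cre15.g642800 and Cre02.g142867 were low in the same 3 strains, and Cre02.g142867 was listed at 0 in all libraries of CC-1009 and CC-1690.

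Some called genes lay side by side. In order of gene ID, 61 of the 510 genes were in 28 runs of at least 2 neighbours called in the same direction, and 13 of them in 4 runs of at least 3. Neighbours were next to each other among tested genes, so untested genes between them were skipped. Genes with IDs from g800000 on are out of order and were left out, so those among the 510 could not be in a run. Near-identical copies formed some runs, such as CAH4 with CAH5 and LHCSR3B with LHCSR3A. How many runs would arise by chance was not tested. The longest run, of 4 genes on chromosome 4, held LCIE1, CCP1, the cyclase Cre04.g223350 and Cre04.g223375, with differences of 2.50, 4.46, 1.77 and 1.94. CAH2 with CAH1, and CCP2 with LCID1, formed 2 further runs on that chromosome. On chromosome 17, SULTR2 stood between Cre17.g723300 (1.52), which lost its call without CC-1009 replicate 2 (1.46) or 4 (1.50), and Cre17.g723400 (2.01). Cre17.g723400 was high in the same strains as SULTR2, with 23.7 ± 3.63 FPKM in CC-1009, 56.7 ± 10.0 FPKM in CC-125, 31.1 ± 13.1 FPKM in CC-1690 and 30.2 ± 8.26 FPKM in CC-4532, against 0.475 ± 0.123 FPKM in CC-124. By chromosome, the share of higher genes past 2-fold was 7.17% on chromosome 15 (16 of 223 tested) and 4.62% on chromosome 4 (20 of 433), against 2.52% over all. The share of lower genes was 2.69% on chromosome 15 (6 of 223) and 2.06% on chromosome 11 (10 of 486), against 0.933% over all.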

How the data were processed

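RNA-seq of poly-adenylated RNA covered 28 libraries, 4 of CC-1009 and 24 of 6 other wild-type strains. The deposited values are FPKM. Per the paper's methods, the authors mapped strand-specific reads of all strains to the CC-4532 genome with STAR, counted them with featureCounts, keeping 1 location of a multimapping read and counting it fractionally, and made FPKM with DESeq2. Reads that differ from that genome, and near-identical gene copies, can therefore shift a value, and this was not tested. No counts were used here, so no counting interval is given.

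The FPKM were tested as log2(FPKM + 0.1) with limma 3.58.1 (trend in the variance) in R 4.3.3, in 1 fit of the 28 libraries with strain as the factor and 21 residual degrees of freedom. CC-1009 was contrasted with the mean of the 6 other strain means, so that each strain weighed equally, and with each strain. Genes with a strain mean above 1 FPKM were kept, and p-values were adjusted by Benjamini-Hochberg over all 14785 genes. The calls were adjusted p below 0.01 against 2-fold (treat) or against no change. In simulated data with 175 genes changed, the 2-fold test recovered 156 and made 0 false calls among 13721 genes. Unchanged genes had the same mean in all strains and the spread of the fit, so 0 false calls past 2-fold were set by the design. The changed genes had a mean log2 above 0. Differences among the other strains and outlying libraries were not simulated, so error rates in the real data were not tested. List levels were means of centred log2 values, and tables were made with Python 3.11.15 and pandas 2.3.3.

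Named genes were the 15 largest increases and decreases past 2-fold and outside the range of the other libraries, up to 6 genes per list past the test against no change, genes whose role the text needs, runs of at least 3 neighbours, and mating type genes. The lists and members were chosen with earlier results of these data known. The lists of sterol synthesis and of DNA methyltransferases with TET-like dioxygenases, trims of other lists, and single genes such as Cre01.g038800, CYP744A5P, Cre06.g276200, SELW2, LIG4 and chlorophyllase I were chosen after their values were seen. Flasks of CC-1009, CC-124, CC-1690, CC-1691 and CC-4532 were inoculated as 2 batches and those of CC-125 and CC-4533 as 1. Which replicates share a batch is not given in the sources used here, so p-values cover the spread between these flasks and treat them as independent. Whether the split of the CC-124 libraries, 1 with 4 and 2 with 3, follows its batches was not tested. Libraries with the same replicate number did not deviate together (correlations of -0.37 to 0.28, median 0.002, 84 pairs). Alternatives were another pseudocount, filter, scaling, threshold or test, a replicate block, strain subsets, and leaving out each strain or library.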

Additional observations from a re-analysis of the deposited data

Results flagged for a closer look

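Groups of 4 values were searched for 1 library far from the other 3. The 117 groups were named genes in the 4 CC-1009 libraries and the summed FPKM of each strain. The search flagged 8 of them, all genes in CC-1009, and chance alone flags about 1 in 20 such groups. MID1 was at 3.35 FPKM in replicate 4 and 4.33 to 4.4 in the others, and PTA1, a proton/phosphate symporter, was at 32.34 FPKM in replicate 4 and 33.99 to 34.07 in the others. BST1 was at 30.86 FPKM in replicate 1 and 35.02 to 35.22 in the others, and BST3 at 76.73 FPKM in replicate 1 and 73.11 to 73.52 in the others. Cre17.g723500 was at 58.73 FPKM in replicate 1 and 48.52 to 49.33 in the others, and every library was above those of the other strains. FAP294 was at 0.41 FPKM in replicate 4 and at most 0.07 in the others. Cre12.g801338 was at 0.03 FPKM in replicate 2 and Cre15.g642800 at 0.1 FPKM in replicate 3, with both listed at 0 in the other 3 libraries.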

How the results depend on the processing

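With 1 FPKM added in place of 0.1, 218 genes were higher and 62 lower past 2-fold, and 3 were lower than in each strain. With a minimum strain mean of 5 FPKM, 1819 genes were higher and 1635 lower against no change and 19 were higher than in each strain, with fewer genes tested. Calling genes by the moderated test and a fitted difference above 2-fold gave 875 higher and 740 lower, and 129 higher and 21 lower than in each strain. Genes lower than in each strain numbered 14 against the 4 strains of the same library set, 15 against the mt- strains, 11 without CC-1690 and 36 without CC-1691, with fewer comparisons to pass. Leaving out 1 library at a time gave 319 to 441 genes higher and 113 to 154 lower past 2-fold, 2484 to 3559 higher and 2074 to 3391 lower against no change, and 25 to 40 higher and 6 to 8 lower than in each strain. The highest counts of the first 5 of these came without CC-4533 replicate 3.

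The replicate numbers do not pair the libraries. With a replicate block, 371 genes were higher and 140 lower past 2-fold, 2924 and 2611 against no change, and 31 and 6 than in each strain.

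Against the strains of the same library set, the sign turned for PTA1 (-0.18), Cre03.g175050 (-0.27), Cre09.g398400 (-0.24), Cre24.g755997 (-0.025), LCI35 (0.027) and HYDA1 (0.030). Against the mt- strains it turned for Cre03.g175050 (-0.27), MID1 (-0.19) and Cre09.g398400 (-0.12), and without CC-1691 for GPD3 (0.033). The cause was not tested. Where no counts are given, the depth behind values below 1 FPKM is unknown.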

Other observations

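Proteins with scavenger receptor or C-type lectin domains are a family of predicted surface receptors. Of 22 tested genes, 15 (68.2%) were higher and 3 (13.6%) lower in CC-1009 against no change (20% and 17.9% of all genes), with a median of 0.53. Their mean centred level was 0.46 in each CC-1009 library, in the middle of the 7 strains, with CC-1691 (0.70 to 0.99), CC-124 (0.464 to 0.773) and CC-4532 (0.54 to 0.62) higher and CC-125 (-0.29 to -0.11), CC-1690 (-1.29 to -1.17) and CC-4533 (-1.179 to -1.003) lower. Cre04.g229550 was above all other libraries, with 7.87, 8.55, 8.09 and 7.96 FPKM in CC-1009, against 1.03 to 6.43 (median 3.21, difference 1.48 ± 0.10, limma adjusted p = 0.000559 past 2-fold), while Cre10.g458850 averaged 97.5 ± 4.94 FPKM in CC-1009 and 1.08 to 113 FPKM in the other strains (2.74 ± 0.16, adjusted p = 1.41e-09). Of 47 ion channel genes, 20 were higher and 2 lower against no change, but the mean centred level was 0.25 to 0.29 in CC-1009, below CC-1691 (0.33 to 0.38) and CC-4532 (0.29 to 0.34), and against no change 1 was higher and 2 lower than in CC-1691 and 4 higher and 7 lower than in CC-4532. Over all 14785 genes, 1047 were higher and 892 lower than in CC-1691, and 1959 and 1510 than in CC-4532. LIC2, a ligand-gated channel, was above all other libraries at 11 ± 0.375 FPKM in CC-1009, against 2.4 to 6.47 FPKM as strain means elsewhere (1.72 ± 0.09, adjusted p = 1.04e-06 past 2-fold). PMA2, a plasma membrane P-type ATPase, averaged 264 ± 15.9 FPKM in CC-1009 and 9.12 to 287 FPKM in the other strains (1.65 ± 0.12, adjusted p = 0.000249 past 2-fold), a call lost without CC-4533 (1.01). Gametolysins and other matrix metalloproteinases, the family of enzymes that digest the algal cell wall, had 5 of 23 genes higher and 11 lower against no change (21.7% and 47.8%). Their median of -0.47 turned to 0.11 with a minimum strain mean of 5 FPKM. AMA3, an alpha-amylase, lay above all other libraries (19.4 ± 1.19 FPKM in CC-1009, 2.85 to 13.6 FPKM elsewhere), and its 2-fold call (adjusted p = 0.00974) was lost in 8 of the alternatives and 22 of 28 cases with 1 library left out.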
